A study of Arabidopsis thaliana with 3 samples.

Results

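EMB (EMBRYO DEFECTIVE) genes of Arabidopsis thaliana are genes whose loss stops the embryo inside the seed. They were examined here for peaks of SOB3-GFP, an AT-hook protein that represses growth of the seedling axis and of petioles. The members were the protein-coding genes whose symbol in the NCBI RefSeq gene table is EMB in capitals followed by a number, and there were 112 of them among 27444 protein-coding genes on chromosomes 1 to 5. A gene counted as reached when a peak had its summit between 1000 bp before the gene and 1000 bp beyond it. The group was chosen by these same measured values, the small number of peaks near its genes in the 2 ChIP lists, so the counts are given as a description, without a test.

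The ChIP-seq libraries came from whole Col-0 plants of 14 days with the genotype ProSOB3::SOB3-GFP sob3-4, in which the fusion runs from the SOB3 promoter in the sob3-4 background. Plants were kept at 22 °C with 16 h of light and 8 h of darkness and harvested at ZT4, 4 h after the lights came on. There were 2 replicates precipitated with an anti-GFP antibody and 1 input library without antibody. All libraries carried the fusion. No precipitation from plants without it was used here, so signal that does not need SOB3-GFP cannot be told apart from SOB3-GFP signal. Separate plantings for the replicates are not recorded in the labels, and differences between them may be technical. The replicate 1 list held 9980 peaks and the replicate 2 list 4788. Peaks that overlapped by at least 1 bp formed 3823 shared regions. The lists carry no read totals, so the depth behind a missing peak is unknown, and a gene without a peak is a gene where none was listed. In whole plants the cells that bind SOB3-GFP and those that do not are pooled, and fewer bound cells and weaker binding per cell cannot be told apart.

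Most EMB genes serve functions that every cell needs. Many code for proteins that work on RNA in plastids and mitochondria, such as pentatricopeptide repeat (PPR) proteins, which bind organelle transcripts, and mTERF proteins. Others code for ribosomal proteins, aminoacyl-tRNA synthetases, which load tRNAs, and factors of splicing, DNA replication and cell division. AT-hook proteins such as SOB3 bind the minor groove of DNA rich in A and T.

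SOB3-GFP peaks lay near few EMB genes in either replicate. A shared region reached 5 of the 112 (4.46%), against 11.5% of all protein-coding genes. The replicate 1 list reached 17 (15.2%, against 28.7% of all genes) and the replicate 2 list 6 (5.36%, against 13.7%). The 5 genes with a shared region made up 29.4% of those reached in replicate 1 and 83.3% of those reached in replicate 2. For other genes these shares were 40.8% and 85.4%. In all, 94 EMB genes (83.9%) had no peak in reach in either list, compared with 69.2% of other genes. The share of members was below that of all genes in both lists, although the replicate 1 list reached 17 members and the replicate 2 list 6.

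EMB genes are longer and more closely packed than the average gene. Their median length was 2989 bp, against 2078 bp for all protein-coding genes. The summed gaps to the neighbouring genes on both sides had a median of 1149 bp, against 1855 bp, and 38.4% of members touched or overlapped a neighbour, against 25.2%. Each member was therefore set beside the other genes in the same decile of gene length and the same decile of summed gaps. Such genes of like length and spacing had a shared region in 10.96% of cases, which corresponds to 12.3 genes in a list of 112. In the replicate 1 list the like genes were reached in 29.4% of cases, or 32.9 of 112, and in the replicate 2 list in 12.7%, or 14.2 of 112. The members thus stood at 0.407, 0.517 and 0.422 of the share among like genes in the shared regions, the replicate 1 list and the replicate 2 list. For shared regions, genes of like length alone gave 12.7% and genes of like gaps alone 9.71%.

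**Figure D1:**
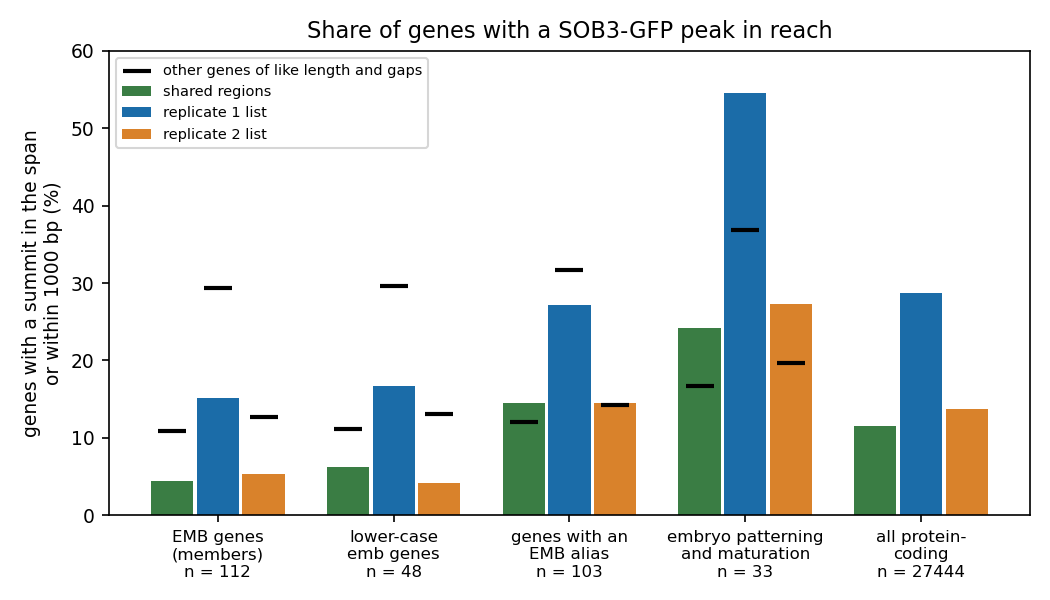
Share of genes with a summit in the span or within 1000 bp (percent of genes, bars) for the EMB genes, for related groups and for all protein-coding genes, in the shared regions and in each replicate list. Black marks give the share among other genes of like length and gaps. The EMB bars lie below their marks in all 3 sets of peaks (4.46% against 10.96% in shared regions). For genes with an EMB alias the shared-region bar is above its mark (14.6% against 12.1%). Their replicate 1 bar is below its mark (27.2% against 31.7%) and their replicate 2 bar close to it (14.6% against 14.2%).

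The 5 genes with a shared region included 3 of the 21 members that code for PPR proteins (14.3%, close to the 11.5% of all protein-coding genes). EMB2279 (AT1G30610), a PPR gene, had its region on chromosome 1 at 10846096 to 10846496 (TAIR10). Its fold enrichment, the authors' linear ratio of the precipitated to the control signal at the summit, was 4.33 in replicate 1 and 3.54 in replicate 2. The summit lay 244 bp outside the gene span, and no other protein-coding gene was within 1000 bp of it. EMB2279 also had a weaker replicate 2 peak 348 bp beyond its other end, with a fold of 2.14 and no partner in replicate 1. It was the only member with more than 1 peak in a list.

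EMB975 (AT2G01860), likewise a PPR gene, had the highest replicate 1 fold of the members. Its region on chromosome 2 at 387191 to 388049 had folds of 5.28 and 3.36. The replicate 1 summit lay 613 bp from EMB975 but inside the neighbouring EXGT-A3 (AT2G01850), which codes for a xyloglucan-modifying enzyme of the cell wall. The replicate 2 summit was 55 bp from it, 558 bp from EMB975 and 19 bp outside EXGT-A3. EMB3111 (AT2G01390), also a PPR gene, had a region on chromosome 2 at 174077 to 174372 with folds of 2.996 and 2.67. That summit was 77 bp from EMB3111 and inside its neighbour AT2G01400. For EMB975 and EMB3111 another gene was thus nearer to the summit than the member.

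The other 2 regions had their summits inside the member. EMB2247 (AT5G16715), which codes for a valine-tRNA ligase, had a region on chromosome 5 at 5493339 to 5493668 with folds of 3.65 and 3.43. The replicate 1 summit lay 45 bp from the end of a span of 8346 bp. EMB506 (AT5G40160), which codes for an ankyrin repeat protein of the chloroplast, had a region on chromosome 5 at 16064393 to 16064881 with folds of 2.15 and 2.34. Its replicate 1 summit was 58 bp from the edge of the span. In both genes the summit was close to one end of the span and none was in the middle. The gene table gives no strand, so whether these are the starts or the ends of the genes was not determined.

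The regions differed in strength. By the lower of the 2 folds, EMB2279, EMB2247 and EMB975 ranked 161, 210 and 250 among the 3823 shared regions. EMB3111 ranked 1187 and EMB506 2927. The summits of the 2 replicates lay 4 to 55 bp apart in the 5 regions. The median folds over all shared regions were 2.89 in replicate 1 and 2.53 in replicate 2, so EMB506 was below both medians and the other 4 genes were above both.

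In replicate 1 alone, 12 further members had a peak, with folds from 2.17 to 3.62 and a median of 2.45. The median of the whole replicate 1 list was 2.58. The strongest was EMB1075 (AT1G43710), a serine decarboxylase gene, with a fold of 3.62 and a −log10 q of 14.5, followed by EMB3135 (AT5G11890) with a fold of 3.39 and EMB2770 (AT4G03430) with 3.31. EMB2770 codes for the splicing factor STA1. These 3 were the only genes of the 12 with the summit inside the span, and it lay 9 bp, 139 bp and 168 bp from an edge. None of the 12 peaks overlapped a replicate 2 peak. That is largely built in, because these genes were set apart for having no replicate 2 summit within 1000 bp. Their nearest replicate 2 summit was 2545 to 59054 bp from the gene (median 5886 bp). The median was 10603 bp for all members and 9110 bp for all protein-coding genes.

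The remaining peaks of this kind lay outside the genes. EMB25 (AT1G70070), which codes for the chloroplast RNA helicase ISE2, had a fold of 2.77 with the summit 29 bp from the gene. EMB3114 (AT2G36000), an mTERF gene, had 2.498 with the summit inside its neighbour LOG2 (AT2G35990). EMB2654 (AT2G41720), a PPR gene, had 2.47, but AT2G41710 was nearer to the summit (213 bp against 340 bp). The summit beside EMB1290 (AT4G23250), which the table also names as the receptor-like kinase gene CRK17, was 141 bp away and had a fold of 2.43. EMB2024 (AT5G24400), the 6-phosphogluconolactonase gene PGL3, had 2.32 with the summit 591 bp away and AT5G24390 nearer. EMB3010 (AT5G10360), which codes for the ribosomal protein RPS6B, had 2.30 at 262 bp. The lowest folds were those of EMB2759 (AT5G63050, 2.27 at 751 bp), EMB3103 (AT1G10910, a PPR gene, 2.25 at 314 bp) and EMB2771 (AT5G05560, 2.17 at 955 bp), which codes for the APC1 subunit of the anaphase-promoting complex. In 4 of the 12 genes another gene was nearer to the summit. EMB1030 (AT5G22800), an alanine-tRNA ligase gene, was the only member with a peak in replicate 2 alone, with a fold of 2.35 and the summit 118 bp from the gene.

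**Figure D2:**
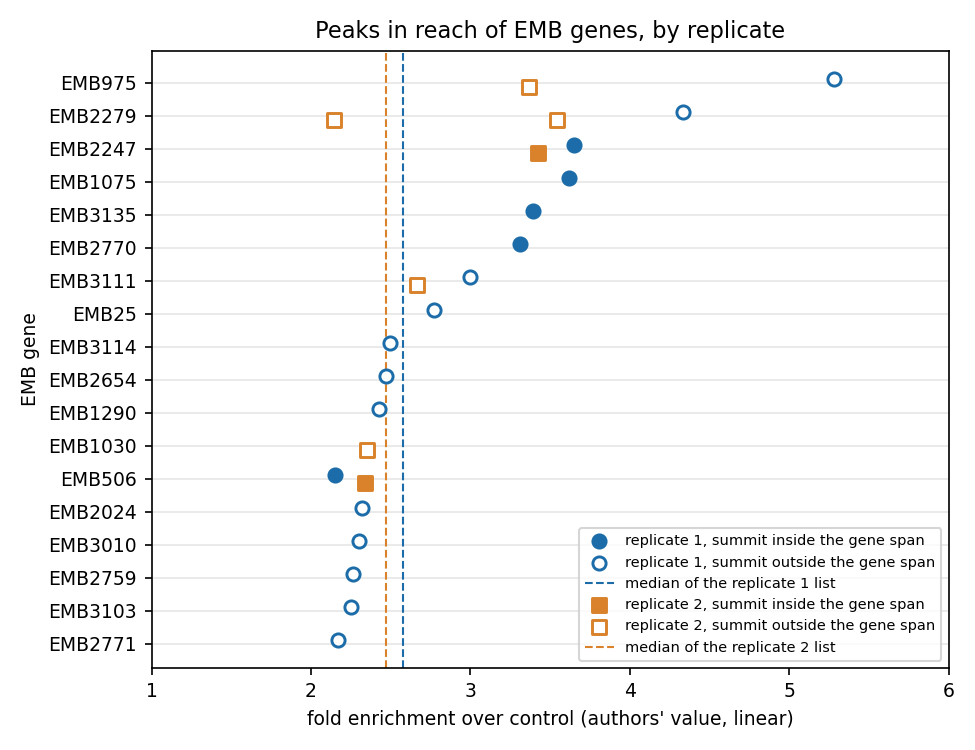
Fold enrichment (authors' linear ratio, horizontal axis) of every peak in reach of an EMB gene, with 1 row per gene, circles for replicate 1 and squares for replicate 2. Filled symbols have the summit inside the gene span, and dashed lines are the medians of the whole lists (2.58 and 2.47). Of the 17 replicate 1 peaks 8 lie above the list median, and 5 genes have peaks from both replicates.

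By role, the reached genes were spread over several groups. Over all protein-coding genes the shares were 28.7% in replicate 1 and 13.7% in replicate 2. Of 21 PPR genes 5 were reached in replicate 1 (23.8%) and 3 in replicate 2 (14.3%), both near those shares, and of 5 aminoacyl-tRNA synthetase genes 1 and 2. Of 12 genes for RNA helicases, splicing and RNA processing 2 were reached in replicate 1 and 0 in replicate 2. The 8 ribosomal protein genes, the 6 genes of DNA replication, chromosomes and cell cycle and the 3 mTERF genes each had 1 gene reached in replicate 1 and 0 in replicate 2. The 57 members that were not put in a group, some of which may have one of these roles, had 6 (10.5%) and 1 (1.75%). Roles were assigned from general knowledge after the peaks were known, so grouped and ungrouped members cannot be compared. The groups are too small to compare with each other.

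By chromosome, no member on chromosome 3 was reached in either list. There were 17 members there. A rough upper limit for a count of 0, 3 divided by the group size, is 17.6%. That limit presumes genes drawn at random, whereas the members were chosen for few peaks, so it decides nothing here. Of the other genes on that chromosome 11.04% had a shared region and 28.4% were reached in replicate 1. Chromosome 5 held 32 members with 2 shared regions, chromosome 2 held 21 with 2 and chromosome 1 held 23 with 1. Chromosome 4 held 19 with 0, where the same limit, with the same reserve, is 15.8%. Other genes were reached at similar shares on all chromosomes, from 11.04% to 12.3% for shared regions.

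In shared regions and in replicate 2 members fell below like genes at weaker peaks, and strong peaks reached too few members to compare. Of the 5 shared regions 3, at EMB2247, EMB2279 and EMB975, stayed when only peaks with a −log10 q of at least 10 were used. That was 2.68% of members, against 1.71% of like genes and 1.85% of all genes. Only 2 members (1.79%) had a weaker shared region and no strong one, against 9.25% of like genes, or 10.4 of 112. The replicate 2 list had 3 members at strong peaks (2.68%, against 2.21% of like genes) and 3 at weaker peaks alone (2.68%, against 10.5%). In replicate 1, which had 3267 peaks of this strength against 801 in replicate 2, members were less frequent in both classes, with 6 at strong peaks (5.36%, against 10.4%) and 11 at weaker peaks alone (9.82%, against 19.0%). With the 1000 strongest peaks of each list, EMB2279 and EMB975 had a shared region (1.79%, against 0.973% of like genes). The 3 members at strong replicate 2 peaks were the same genes as those at strong shared regions. Like genes would give 2.48 and 1.91 of 112 there. At the strongest shared regions and replicate 2 peaks counts of 2 and 3 are too small to place the members above or below other genes.

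In shared regions the share of members was below that of like genes at each distance taken from 0 to 15000 bp. The gap was smallest at 4000 bp. Within 20000 bp members were above like genes (67.9% against 66.3%). These shares are cumulative, so each carries forward the few peaks within 1000 bp by which the members were chosen. Within 2000 bp a shared region reached 6.25% of members and 14.6% of like genes, and within 3000 bp 11.6% and 18.5%. Within 4000 bp the shares were 22.3% and 22.6%, within 5000 bp 22.3% and 26.6%, within 7500 bp 32.1% and 35.7%, and within 10000 bp 41.96% and 43.8%. In the replicate 2 list members had 7.14% against 16.9% within 2000 bp and 27.7% against 26.2% within 4000 bp. In the replicate 1 list the gap closed more slowly, from 24.1% against 36.8% within 2000 bp to 45.5% against 51.6% within 4000 bp and 74.1% against 78.5% within 10000 bp. The median distance from a member to the nearest shared summit was 13024 bp, against 11315 bp for all genes, and to the nearest replicate 1 summit 5397 bp, against 3647 bp.

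**Figure D3:**
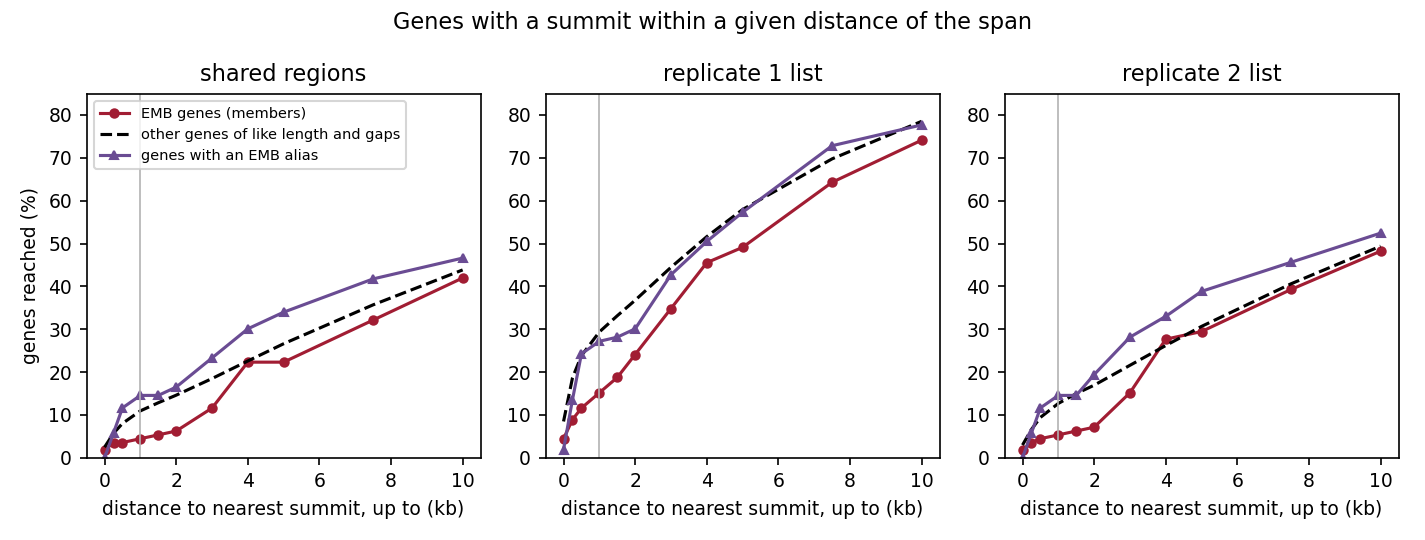
Cumulative share of genes (percent) that have a summit within a given distance of the gene span (kb), for EMB genes, for other genes of like length and gaps and for genes with an EMB alias. The grey line marks the 1 kb limit. The EMB curve for shared regions is below that of like genes at 2 kb (6.25% against 14.6%), nearly meets it at 4 kb (22.3% against 22.6%) and is below it again at 5 kb (22.3% against 26.6%).

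Summit density was also taken by zone. Inside member spans there were 2 shared summits in 422024 bp, or 0.474 per 100 kb, against 1.03 for all genes. In the first 250 bp outside the span there were 3.57 per 100 kb, against 7.20, and from 250 to 1000 bp 0.595 (1 summit) against 4.29. From 1000 to 2000 bp there were 0.893 (2 summits) against 3.04, and from 2000 to 5000 bp 2.98 against 3.24. Around members, as around all genes, the first 250 bp outside the span had the highest density of shared summits, but for members this rests on 2 summits. In replicate 1 the members' highest density was also there (8.93 per 100 kb from 5 summits, against 7.89 from 2000 to 5000 bp). In replicate 2 the first 250 bp held 2 summits (3.57 per 100 kb) and the zone from 2000 to 5000 bp 31 (4.61). So few summits do not settle the order of these zones for members. Flanks of neighbouring genes overlap, so a summit can count more than once. These densities were not matched for gene length or spacing, although members are more closely packed than all genes.

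**Figure D4:**
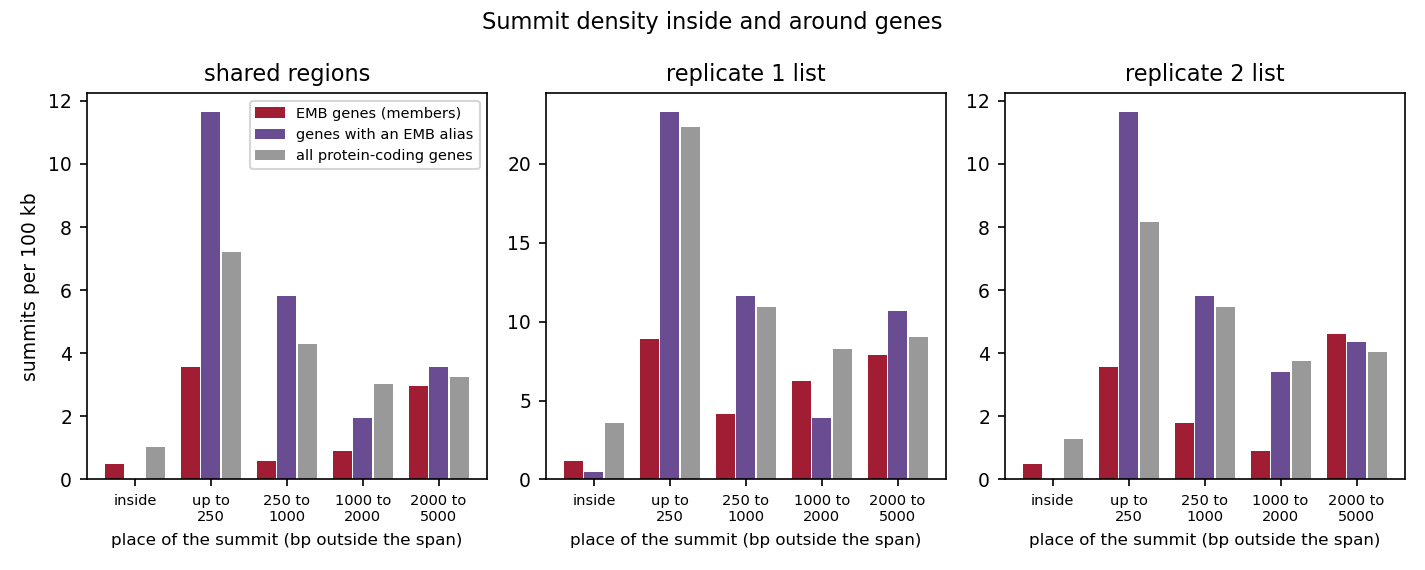
Summits per 100 kb (vertical axis, with a separate scale for each list) inside gene spans and in 4 zones outside them, summed over all genes of a group. The groups are not matched for gene length or spacing. For shared regions the EMB bars are lower than those of all genes up to 2000 bp (0.893 against 3.04 from 1000 to 2000 bp) and close to them from 2000 to 5000 bp (2.98 against 3.24).

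The members nearest to the 1000 bp limit show how sharply it divides them. Just inside it were EMB2771 (955 bp), EMB2759 (751 bp), EMB2024 (591 bp), EMB975 (558 bp, in replicate 2) and EMB2654 (340 bp). Just outside were EMB2762 (AT2G17250, 1217 bp), EMB3144 (AT5G64580, 1286 bp), EMB1895 (AT4G20060, 1400 bp), EMB3141 (AT5G50390, 1421 bp) and EMB2785 (AT2G31060, 1571 bp, in replicate 2). The nearest summit of either list was used here. EMB3144 and EMB2785 had a shared region at 1286 and 1606 bp, so a wider limit adds them. The longest member, EMB3142 (AT5G51200, 14915 bp), the shortest, EMB2743 (AT3G20400, 420 bp), and EMB2756 (AT1G34550), with the widest gaps (9295 bp), had no peak in reach in either list. The farthest from any replicate 1 summit was EMB3143 (AT5G58250), at 35231 bp.

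The members were also set beside other genes within quartiles of spacing and of length. In the quartile of genes with the narrowest gaps (up to 702 bp) 3 of 42 members had a shared region (7.14%), against 5.06% of other genes. In the quartile with the widest gaps (4027 bp or more) it was 1 of 13 (7.69%), against 16.8%, and in the middle quartiles 1 of 33 and 0 of 24, against 11.03% and 13.2%. In the replicate 1 list the member shares were 11.9%, 15.2%, 16.7% and 23.1% from the narrowest to the widest quartile, and those of other genes 17.9%, 29.0%, 32.9% and 35.4%. By length, from the shortest to the longest quartile, a shared region reached 0 of 10, 2 of 20, 1 of 27 and 2 of 55 members, against 9.09%, 10.8%, 12.2% and 14.1% of other genes. In the quartile from 1323 to 2078 bp members were close to other genes, with 2 of 20 for shared regions and 6 of 20 (30%, against 27.4%) in replicate 1.

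Other genes with EMB numbers gave differing shares. A further 48 genes have the same kind of symbol in lower case in the table, and 3 of them (6.25%) had a shared region, against 11.2% of like genes. The replicate 1 list reached 8 (16.7%, against 29.6%) and the replicate 2 list 2 (4.17%, against 13.1%). Another group was made of 103 genes that carry an EMB number only as an alias, under another symbol, such as GN or DCL1. Of these 15 (14.6%) had a shared region, against 12.1% of like genes, and 28 (27.2%, against 31.7%) and 15 (14.6%, against 14.2%) were reached in replicates 1 and 2. Both added groups were formed after the members' counts were known, and their difference from the members was not tested. In the alias group the highest lower folds were those of RUS6 (AT5G49820, 4.18 and 3.99), EIF2 BETA (AT5G20920, 3.98 and 4.15), a translation initiation factor gene, and PCS1 (AT5G02190, 3.30 and 3.01), which codes for an aspartic protease. None of the 15 had its shared summit inside the span, and they lay 21 to 923 bp outside. Over all protein-coding genes 3155 were reached, and 635 had a shared summit inside the span. With 15 genes this is too few to call a trait of the alias group. In the lower-case group the genes with a shared region were emb2746 (AT5G63420, 4.29 and 2.93), emb2734 (AT5G19820, 2.73 and 2.74) and emb1345 (AT2G26060, 2.397 and 2.48).

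Genes of embryo patterning and maturation, most of them regulators, had shares above those of like genes. Of 33 such genes, 8 (24.2%) had a shared region, 18 (54.5%) were reached in replicate 1 and 9 (27.3%) in replicate 2. Like genes had 16.7%, 36.8% and 19.6%, which corresponds to 5.51, 12.2 and 6.48 of 33. The median summed gaps of these 33 genes were 6138 bp, wider than those of the members. The strongest were WOX8 (AT5G45980, 4.002 and 4.93), a homeobox gene of the early embryo, SCR (AT3G54220, 5.64 and 3.95), a regulator of tissue layers, and SYP111 (AT1G08560, 2.91 and 2.89), the syntaxin gene KNOLLE of cell plate formation. The difference from like genes was not tested, and the list shares 5 genes with the alias group. Of the 6 TITAN (TTN) genes, whose mutants form giant endosperm nuclei, 0 had a shared region, and 2 and 1 were reached in replicates 1 and 2. The rough limit of 3 divided by the group size is 50% here, so the group is too small to give a share.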

How the data were processed

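The submitters' processing notes name bcl2fastq, Bowtie 0.12.9, MACS2 and the TAIR10 build; the version of MACS2, its control and its threshold were not given in the sources used here. Each replicate has its own peak numbering in the deposited files, so peaks were called per replicate. The deposited fold is the authors' linear ratio of summit signal to control. The authors' −log10 p and −log10 q values accompany it, with −log10 q from 1.33 upwards in replicate 1 and from 1.30 in replicate 2. The deposited score repeats −log10 q, multiplied by 10 and cut to a whole number (100% of peaks), and was not used further. Values of the input library entered only through the authors' peak calls, folds and p and q values, if at all.

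Analyses used Python 3.11.15 with numpy 2.4.6 and pandas 2.3.3. Overlapping peaks (1 bp or more) were joined into shared regions, each with the summit of its replicate 1 peak of highest fold. Gene spans were read from the RefSeq table for TAIR10.1 of NCBI, whose nuclear coordinates are taken to match TAIR10; none of them are printed. The table has no strand, sequence or product descriptions, so the planned A+T content, motifs and protein lengths were not run, and keyword groups used symbols and aliases alone. Like genes shared the decile of gene length and the decile of summed gaps with a member; genes with any EMB symbol or alias were left out of them. A gene overlapping its neighbour has a gap of 0. Counting and joining were tested on simulated data. Roles were assigned to 55 members from general knowledge, after their peaks were known. The members and lists were chosen with earlier results of these data known, and no p-value is given. Named genes are those with a shared region, the 10 strongest with a peak in 1 list only, the 5 on each side of the 1000 bp limit, the longest, the shortest and that with the widest gaps, and up to 3 per comparison list; EMB3103, EMB3143, GN and DCL1 were added. Alternatives varied the flank, the peak threshold, the overlap, the gene assignment, the classes and the symbols taken.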

Additional observations from a re-analysis of the deposited data

Results flagged for a closer look

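The shared regions leave out signal of single lists at the EMB genes. In replicate 1, 12 EMB genes had a peak in reach and no shared region, with folds of 2.17 to 3.62 and −log10 q of 4.06 to 14.5. In replicate 2, 1 EMB gene was of this kind, EMB1030, with a fold of 2.35 and a −log10 q of 5.02. These were set apart because they are peaks in the authors' lists that the shared regions do not use. Whether they are SOB3-GFP sites was not tested.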

How the results depend on the processing

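The main counts were 5, 17 and 6 EMB genes reached by shared regions, by replicate 1 and by replicate 2, and 10.96% of like genes with a shared region. Leaving out 1 replicate gave from 6 (without replicate 1) to 17 genes (without replicate 2), and 12.7% to 29.4% of like genes. With summits inside the span only, the counts were 2, 5 and 2, and the like share 2.48%. With a flank of 2000 bp the replicate 1 count was 27. With each summit given to its nearest gene, the shared-region count was 3 and the replicate 1 count 11. At −log10 q of at least 10 the counts were 3, 6 and 3 and the like share 1.71%; with the top 1000 peaks they were 2, 2 and 3 and the like share 0.973%. In these 2 settings the members' share of shared regions went from 0.407 to 1.57 and 1.83 times that of like genes. Their share of replicate 2 peaks went from 0.422 to 1.21 and 0.979 times. These ratios rest on 2 or 3 members, too few to place the members above or below like genes. For replicate 1 peaks the ratio stayed at 0.515 and 0.593. In all other planned settings the ratio was below 1 for each of these counts. Every setting recounts peaks of the same 2 lists by which the members were chosen. A ratio below 1 is therefore largely built in and gives no separate support. The remaining planned settings (flank of 500 bp, reciprocal overlap of 50%, other classes) moved no count by more than 1.5 times. Of the settings chosen after seeing the data, lower-case symbols gave 8 genes of 160 with a shared region, and all genes with an EMB symbol or alias gave 23, 53 and 23 of 263, at 0.764, 0.664 and 0.654 times like genes. No paired analysis was possible because the design has 1 group with peak lists. Without read totals or sequence, a missing peak cannot be told apart from too little depth or from stretches where reads align poorly.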

Other observations

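The genes next to the members share flanks with genes chosen for having few peaks, so part of their count is built in. Of 224 neighbouring non-member genes 17 (7.59%) had a shared region, 49 (21.9%) were reached in replicate 1 and 20 (8.93%) in replicate 2, against 10.2%, 27.1% and 12.1% of genes of like length and spacing. Their median summed gaps were 1267 bp, and the difference was not tested.

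Among non-member genes taken by keyword in symbols or aliases, shares with a shared region lay on both sides of the 11.5% of all protein-coding genes. A shared region reached 5 of 68 ribosomal genes (7.35%), 2 of 31 translation factor genes (6.45%) and 2 of 26 RNA polymerase genes (7.69%). It reached 1 of 18 splicing genes (5.56%) and 0 of 11 tRNA synthetase genes. For the latter the rough limit of 3 divided by the group size is 27.3%. Of the other keywords, 95 of 582 kinase genes (16.3%), 5 of 39 chaperone genes (12.8%), 4 of 22 helicase genes (18.2%) and 2 of 11 pentatricopeptide genes (18.2%) had one. Except for kinase and ribosomal genes, these counts lie within 1 or 2 genes of the overall share. In replicate 1 the helicase and pentatricopeptide genes stood at 27.3% each, below the 28.7% of all genes. The table names few genes of each kind by keyword, and among the members it found only 5 matches over all keywords, of which the ribosomal protein gene EMB3010 and the kinase gene EMB1290 were reached, in replicate 1. The groups were not matched for length and spacing, and their differences were not tested.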
